A study of Mus musculus with 22 samples.

Results

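A set of 6 genes that mark the atria was followed in RNA from embryonic heart ventricles: Myl4, Myl7, Sln, Myh6, Nr2f1 and Nr2f2. They were taken by symbol, 6 of the 48709 genes in each of 2 count tables, and all 6 passed the filter on low counts in both. The tables hold 18 RNA-seq libraries of polyA RNA from the ventricles of E13.5 mouse embryos, out of 22 samples in the series (the 4 ChIP-seq samples were not used here). Every group carried Nkx2.5-Cre, a recombinase driven from a gene of cardiac precursors, which is active in the precursors of atria and ventricles alike. The first experiment compared LIN9 wt with LIN9 KO ventricles, both with wild-type Sav1, with 3 libraries each. The second compared 4 genotypes with 3 libraries each: LIN9 wt Sav1 wt (called control below), LIN9 KO Sav1 wt, LIN9 wt Sav1 KO, and LIN9 KO Sav1 KO (double knockout). In the study LIN9 wt stands for Lin9 fl/+ and LIN9 KO for Lin9 fl/fl, so that the controls may also carry a deleted Lin9 allele, and Sav1 KO as Sav1 fl/fl. LIN9 is a subunit of the MuvB core, which with B-MYB forms the Myb-MuvB complex, an activator of mitotic genes, and SAV1 is a scaffold of the Hippo kinases, which restrain the coactivator YAP. A figure caption of the study counts the LIN9 comparison as 2 biological replicates, with triplicates in each. Whether the triplicates are separate embryos or pools was not stated, so p-values measure the spread between these libraries, which may be partly technical.

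Atrial and ventricular cardiomyocytes use different contractile proteins. MYL7 and MYL4 are the regulatory and essential myosin light chains of the atrium, and MYL2 and MYL3 are their ventricular counterparts. MYH6 and MYH7 are the alpha and beta myosin heavy chains, sarcolipin (Sln) is a small membrane peptide that inhibits the calcium pump SERCA in atrial cells, and Nr2f1 and Nr2f2 encode the COUP transcription factors, of which COUP-TFII (NR2F2) maintains atrial identity in the mouse. Before birth some of these genes, Myl4, Myl7 and Myh6 among them, are also transcribed in ventricles, and Myl4 and Myl7 fade there as the chambers mature. A ventricle sample can also hold some atrial tissue from dissection, which was not scored for these libraries.

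Of the 6 genes, only Sln rose with the LIN9 knockout past the threshold of the test (adjusted p under 0.05), and it did so in the second experiment with Sav1 wt (2.95-fold) and with Sav1 KO (3.46-fold), where 23.2% and 23.4% of all genes passed. In the first experiment it was 3.36-fold higher with an adjusted p of 0.0833, where 20.9% of genes passed. Myl4, Myl7, Nr2f1 and Nr2f2 did not pass the threshold in any comparison, and nor did Myh6, whose log2 fold change with the LIN9 knockout was negative each time. With the Sav1 knockout no member passed the threshold, where only 3 and 2 genes of all tested did (0.017% and 0.0113%). The ventricular partners Myl2, Myl3 and Myh7 fell by 0.92 to 1.65 on the log2 scale, so that the atrial to ventricular ratio of the light chains was higher in every LIN9 KO library than in every LIN9 wt library of the same background.

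The genes lie on 5 autosomes (mm10, GENCODE M21). Myl4 (ENSMUSG00000061086) spans chr11:104550663-104595753 on the plus strand and Myl7 (ENSMUSG00000020469) chr11:5896637-5898782 on the minus strand. Sln (ENSMUSG00000042045) spans chr9:53850164-53854560 on the plus strand. Myh6 (ENSMUSG00000040752) spans chr14:54941921-54966927 on the minus strand, next to Myh7 at chr14:54970684-54994626. Nr2f1 (ENSMUSG00000069171) spans chr13:78188973-78199757 and Nr2f2 (ENSMUSG00000030551) chr7:70351944-70366735, both on the minus strand. No other annotated gene overlaps Myl7 or Sln. Between 0.0647% (Myl4) and 7.46% (Nr2f2) of the exonic length of the other 4 lies under exons of other genes, and since the strandedness of the counting was not stated, reads there cannot be told apart. Myh6 and Myh7 are near-identical paralogs, and how their shared reads were counted was not stated, so both are uncertain to that extent.

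Start site sequences of RefSeq (GRCm38.p6, 250 bases before to 50 after the start) were held for 5 of the 6 genes, Sln being the exception. The stretches of Myl7 and Myh6 from base -150 to base 20 of the start are shown because they were the only member promoters with a match to any of 7 motifs searched on both strands. Capitals mark the match, which is the CArG box of serum response factor in Myl7 (CCTTATTTGG, from base -61) and TATAAA in Myh6 (from base 2). The stretches are chr11:5898763-5898932 and chr14:54966588-54966757, both read from the minus strand.
Myl7: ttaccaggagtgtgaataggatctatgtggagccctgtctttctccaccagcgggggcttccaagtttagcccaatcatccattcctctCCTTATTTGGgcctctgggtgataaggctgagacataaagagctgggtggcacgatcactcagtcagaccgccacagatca
Myh6: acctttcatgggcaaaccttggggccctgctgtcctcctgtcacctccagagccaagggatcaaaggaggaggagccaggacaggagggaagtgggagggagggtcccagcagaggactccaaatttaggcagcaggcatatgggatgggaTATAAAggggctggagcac
The CArG box stood in 1.63% and TATAAA in 13.6% of all 32851 promoters of this length. TTTGAA, the cell cycle homology region through which the MuvB core contacts DNA, stood in 17.9% of them and in no member window. A T-box site spelled AGGTGTGA stood in 1.28% of all promoters, the site AGATAA of the Gata factors in 11.2%, the nuclear receptor site AGGTCA in 16.3% and the E-box CAGCTG in 16.3%, and none of them stood in a member window. A match or its absence describes these letters only.

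The libraries held 9485599 to 9615274 counts in the first and 2770741 to 2999877 in the second experiment, so that 1 count was worth 0.103 to 0.108 CPM (the count scaled to a common library size) in the first and 0.328 to 0.373 CPM in the second. Reads over the whole Lin9 and Sav1 genes barely check the deletions, since only exon 7 of Lin9 and exon 3 of Sav1 are floxed. Lin9 changed by -0.31 on the log2 scale with LIN9 KO in the first experiment (adjusted p = 0.13), by -0.80 in the second with Sav1 wt (adjusted p = 0.0027) and by -0.16 with Sav1 KO (adjusted p = 0.586), where the groups overlapped. Sav1 changed by -0.50 in LIN9 wt and -0.23 in LIN9 KO ventricles (adjusted p = 0.318 and 0.464), and 25.4% of the exonic bases of Sav1 are shared with other genes. In LIN9 wt of the first experiment the ventricular label was matched by Myl2, which at 2188 to 2637 CPM per kb of exon stood above Myl7 at 763 to 1481 CPM per kb. In LIN9 KO, where Myl2 was at 646 to 1007 CPM per kb, Myl7 stood above it in all 3 libraries. By CPM, without division by exonic length, Myl7 (617, 1045 and 751) lay below Myl2 (1750, 1261 and 1963) in these 3 libraries. Phospholamban (Pln), a ventricular marker in the same list, was listed at 0 in all 18 libraries. So were the myosin light chain genes Myl12a and Myl12b, the erythroid marker Alas2 and the nerve marker Tubb3. Whether a listed 0 reflects absent RNA or the counting was not tested.

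Over all libraries of an experiment, genotypes pooled, the members had the same order of median level per length of exon in both experiments. In the first experiment the medians over 6 libraries were 1159 CPM per kb for Myl7, 470.2 for Myl4, 265 for Myh6, 8.28 for Sln, 5.13 for Nr2f2 and 1.95 for Nr2f1. Over the 12 libraries of the second they were 1061, 396, 384, 7.52, 4.90 and 2.24 CPM per kb. The light and heavy chains thus stood far above Sln and the COUP factors, and the neighbours Myl4 and Myh6 lay closest to each other in the second experiment, within the spread of Myh6. In Sav1 KO the order of Myh6 and Myl4 was the reverse, with Myh6 at 411, 431 and 442 and Myl4 at 385, 398 and 436 CPM per kb. Sln stood above Nr2f2 in this order through its LIN9 KO libraries. In the LIN9 wt groups their means lay within their spread, at 5.28 ± 1.91 CPM per kb for Sln and 5.58 ± 0.78 for Nr2f2 in the first experiment, 5.30 ± 2.62 and 5.23 ± 1.03 in the control and 3.52 ± 1.89 and 4.81 ± 0.40 in Sav1 KO (SD, n = 3). By median CPM, without division by length, the order was another and was not the same in both experiments. In the first it was Myl4 (2181), Myh6 (1784), Myl7 (684), Nr2f2 (44.3), Sln (10.9) and Nr2f1 (9.94). In the second it was Myh6 (2580), Myl4 (1837), Myl7 (626), Nr2f2 (42.3), Nr2f1 (11.4) and Sln (9.92). The spread between libraries differed between the genes too. Myl4 varied by a factor of 1.18 between its lowest and highest library in the first and 1.298 in the second experiment, against 7.71 and 9.23 for Sln.

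**Figure D1:**
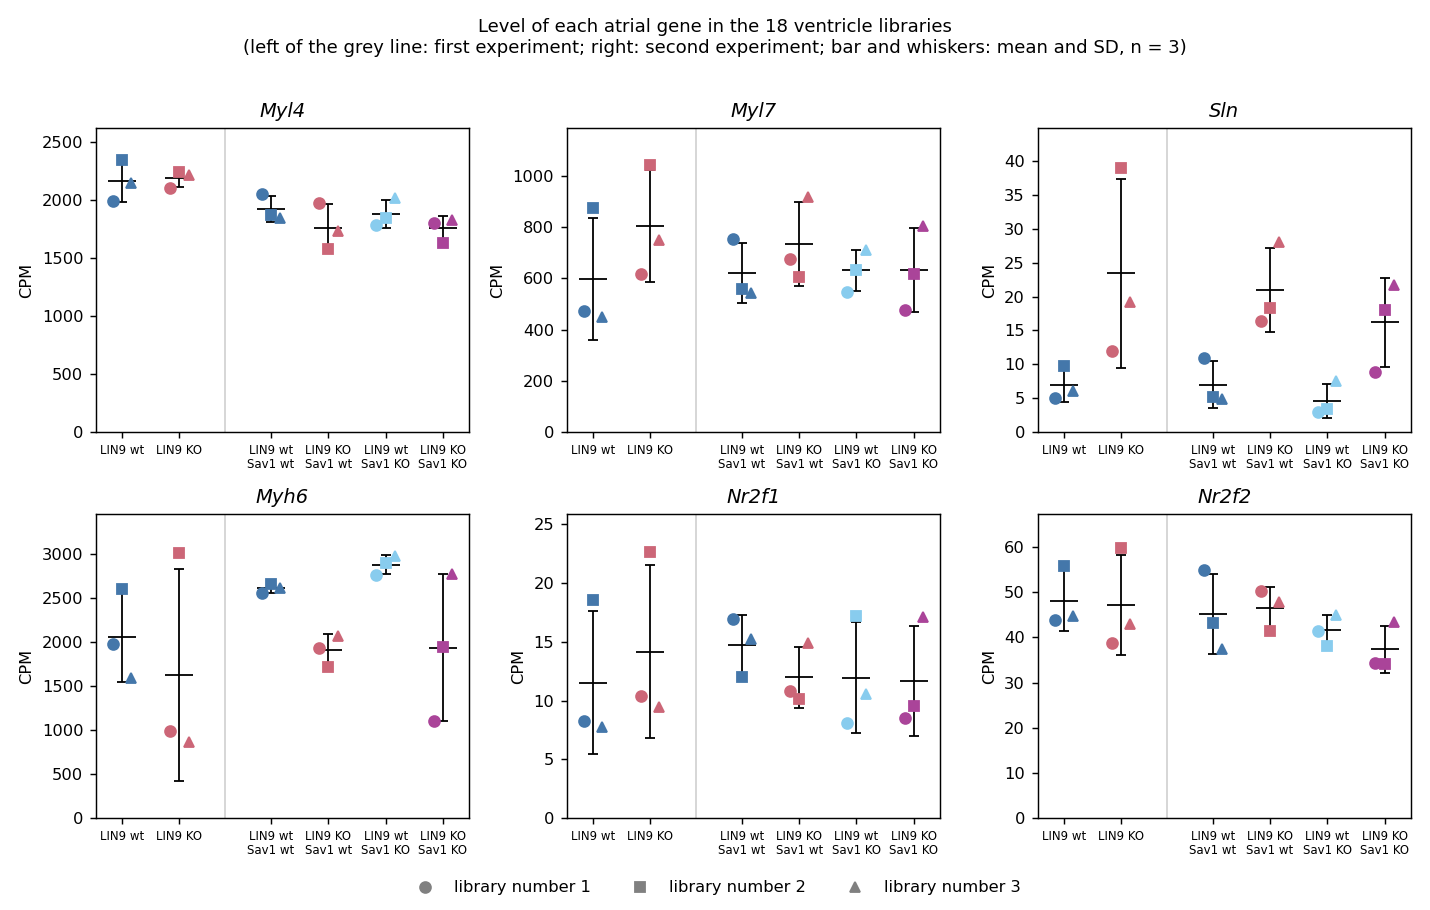
Level of each of the 6 atrial genes in the 18 libraries, in CPM, by genotype, with points for single libraries (shape: library number) and bars and whiskers for the mean and SD of 3 libraries. Sln is the gene whose LIN9 KO points lie above the LIN9 wt points in all 3 comparisons, and the number 2 libraries of the first experiment are the highest of their genotype in all 6 panels.

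Both number 2 libraries of the first experiment stood apart in these genes. The LIN9 wt and the LIN9 KO library of that number were each the highest of their genotype in 6 of 6 members. The same libraries were the highest in 16 (LIN9 wt) and 18 (LIN9 KO) of 19 other atrial-enriched genes, and their summed level over those 19 genes was 2891 CPM against 2227 and 2471 CPM in LIN9 wt and 4069 CPM against 2885 and 3123 CPM in LIN9 KO. In the ventricular list the LIN9 KO library of that number was the lowest in 6 of 8 genes, while the LIN9 wt library was the highest in 5 and the lowest in 3 of them. In the second experiment library 3 of the double knockout was the highest of its group in 6 of 6 members and 14 of 19 other atrial-enriched genes. Control library 1 and Sav1 KO library 3 were the highest in 5 of 6 members each. Library 3 of LIN9 KO Sav1 wt was the highest of its group in 4 of 6 members. It was the highest in 9 and the lowest in 5 of 19 other atrial-enriched genes, and the lowest in 7 of 8 ventricular genes. How much atrial tissue each library held was not measured, and its part in these results was not tested. Results of the first experiment that change without both number 2 libraries are given with and without them below.

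**Figure D2:**
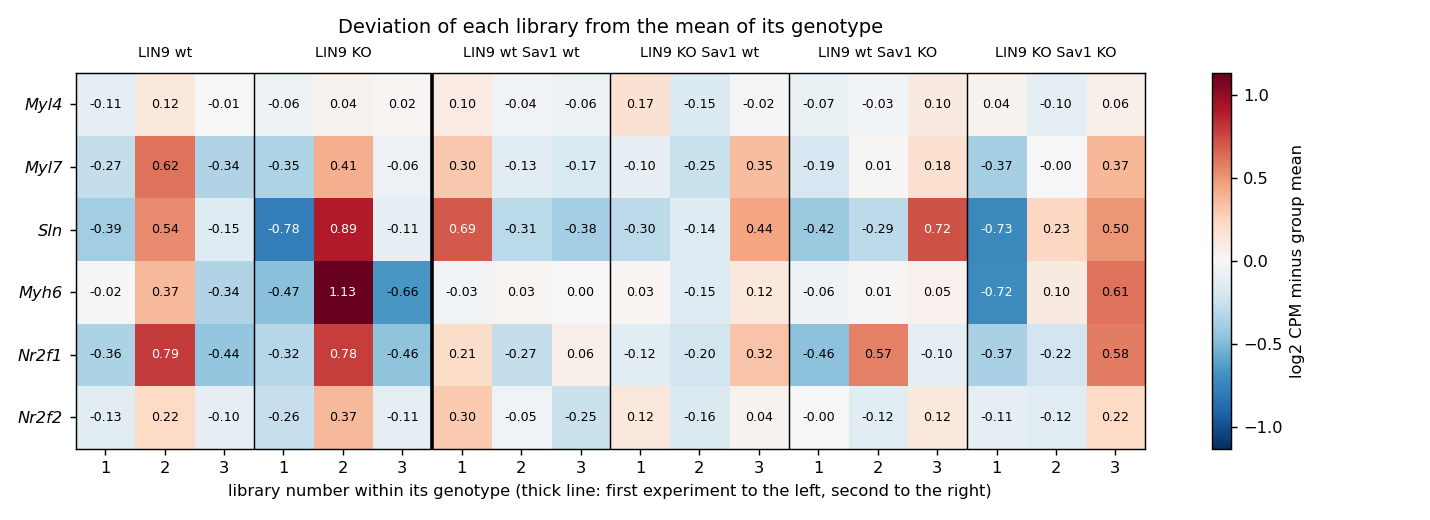
Deviation of each library from the mean of its genotype, in log2 CPM, for the 6 genes (rows) and 18 libraries (columns, 3 per genotype, with a thick line between the experiments). Red cells lie above and blue cells below the genotype mean, and the number 2 columns of both genotypes of the first experiment are red in all 6 rows, up to 1.13 for Myh6 in LIN9 KO.

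Sln was measured at 5.05, 9.80 and 6.03 CPM in libraries 1, 2 and 3 of LIN9 wt and at 12.04, 38.9 and 19.2 CPM in LIN9 KO of the first experiment. All 3 LIN9 KO libraries lay above all 3 LIN9 wt libraries, and these values rest on 49 to 371 counts. The means were 6.96 ± 2.51 and 23.4 ± 13.9 CPM (SD, n = 3), a log2 fold change of 1.75 (SE 0.54, 95% interval 0.39 to 3.11), which did not pass the threshold in edgeR's quasi-likelihood test (adjusted p = 0.0833). The highest library was number 2 in both genotypes. Without both number 2 libraries, an alternative chosen after seeing the data, the log2 fold change was 1.498 (adjusted p = 0.00175). Without LIN9 KO library 1 it was 2.07 (adjusted p = 0.00708), and without LIN9 KO library 2 it was 1.17 (adjusted p = 0.0157), so that the call depended on which libraries entered.

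In the second experiment Sln stood at 10.97, 5.14 and 4.84 CPM in the control and at 16.4, 18.4 and 28.0 CPM in LIN9 KO Sav1 wt ventricles. The groups did not overlap, and the log2 fold change was 1.56 (SE 0.41, interval 0.66 to 2.46, adjusted p = 0.0168). This call was lost without control library 2 (1.35, adjusted p = 0.0805) or control library 3 (1.36, adjusted p = 0.067). With Sav1 KO, Sln stood at 3.03, 3.38 and 7.51 CPM in LIN9 wt and at 8.86, 17.96 and 21.7 CPM in the double knockout. The groups again did not overlap, with a log2 fold change of 1.79 (SE 0.46, interval 0.78 to 2.80, adjusted p = 0.0148). The lowest of these libraries held 9 Sln counts, and the call was lost without Sav1 KO library 1 (1.56, adjusted p = 0.0697), Sav1 KO library 2 (1.61, adjusted p = 0.0701) or double knockout library 2 (1.68, adjusted p = 0.0559).

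Set against all genes, the Sln change lay at the 97.7th, 96.6th and 96.9th percentile of log2 fold changes in the 3 LIN9 comparisons. Its LIN9 effect did not differ between the Sav1 backgrounds past the threshold (difference 0.23, SE 0.64, interval -1.16 to 1.63, adjusted p = 0.973), nor between the experiments (second minus first -0.19, interval -1.86 to 1.47, adjusted p = 1). Both intervals are wide and allow differences larger than a doubling in either direction. The double knockout against the control gave 1.19 (SE 0.43, interval 0.26 to 2.13, adjusted p = 0.0708), with overlapping groups, since control library 1 lay above double knockout library 1. Without control library 1 this difference was 1.68 (adjusted p = 0.0201), and without double knockout library 1 it was 1.45 (adjusted p = 0.00819).

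Myl7, the atrial regulatory light chain, read 472, 874 and 450.0 CPM in LIN9 wt and 617, 1045 and 751 CPM in LIN9 KO of the first experiment. The groups overlapped, because LIN9 wt library 2 exceeded 2 of the 3 LIN9 KO libraries. The log2 fold change was 0.43 (SE 0.31, interval -0.33 to 1.18, adjusted p = 0.422), and without LIN9 wt library 2 it was 0.80 (adjusted p = 0.0192). Without both number 2 libraries it was 0.57 (adjusted p = 0.0173). In the second experiment Myl7 read 755, 561 and 544 CPM in the control, 675, 607 and 918 CPM in LIN9 KO, 549, 633 and 712 CPM in Sav1 KO and 478, 619 and 804 CPM in the double knockout. All 4 groups overlapped. The LIN9 effect was 0.24 with Sav1 wt (SE 0.23, adjusted p = 0.527) and near 0 with Sav1 KO (interval -0.51 to 0.52, adjusted p = 0.988).

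Myl4, the atrial essential light chain, was the steadiest of the 6 genes. It read 1995, 2344 and 2146 CPM in LIN9 wt and 2104, 2246 and 2215 CPM in LIN9 KO of the first experiment, a log2 fold change of 0.02 (SE 0.13, interval -0.26 to 0.30, adjusted p = 0.944). All 3 LIN9 KO values lay between the lowest and highest LIN9 wt value. In the second experiment the control read 2051, 1869 and 1846 CPM, LIN9 KO 1979.8, 1579.8 and 1734 CPM, Sav1 KO 1786, 1845 and 2020.1 CPM, and the double knockout 1806, 1634 and 1829 CPM. The double knockout lay below the control in all 3 libraries with no overlap, but its log2 fold change of -0.13 (SE 0.10, adjusted p = 0.396) did not pass the threshold. The LIN9 effects of -0.12 with Sav1 wt and -0.10 with Sav1 KO had intervals from -0.33 to 0.08 and from -0.30 to 0.10.

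Myh6, the alpha heavy chain, differed widely between the libraries of LIN9 KO in the first experiment and of the double knockout. It read 1980.4, 2599 and 1587 CPM in LIN9 wt and 990.4, 3006 and 868 CPM in LIN9 KO of the first experiment. LIN9 KO library 2 was the highest of all 6 and the other LIN9 KO libraries were the lowest. The log2 fold change was -0.34 (SE 0.57, interval -1.84 to 1.15, adjusted p = 0.754). Without LIN9 KO library 2 it was -1.15 (adjusted p = 6.77e-04), and without both number 2 libraries it was -0.94 (adjusted p = 0.00195), so that 1 library decided this call.

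In the second experiment Myh6 read 2551, 2657 and 2608 CPM in the control and 1935, 1713 and 2069.9 CPM in LIN9 KO ventricles. These groups did not overlap, yet the log2 fold change of -0.45 (SE 0.27, interval -1.06 to 0.16) had an adjusted p of 0.292 in the fit over all 12 libraries. In a fit of these 6 libraries alone the log2 fold change was -0.48 (adjusted p = 0.00496). The fit over 12 libraries shares 1 estimate of the spread over all its groups. The SD of Myh6 was 53.0 CPM in the control, 180 in LIN9 KO, 106 in Sav1 KO and 833 in the double knockout (n = 3). Why the fits differed was not tested further. Sav1 KO read 2762, 2896 and 2972 CPM and the double knockout 1098.9, 1937 and 2764 CPM, a difference of -0.57 (SE 0.27, interval -1.19 to 0.04, adjusted p = 0.171). Double knockout library 3 lay among the Sav1 KO values, and without it the difference was -0.94 (adjusted p = 0.00131). Sav1 KO libraries all lay above the control libraries, by 0.14 on the log2 scale (SE 0.27, adjusted p = 0.999).

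Nr2f1, one of the COUP factors, stood at 8.24, 18.6 and 7.79 CPM in LIN9 wt and at 10.4, 22.7 and 9.46 CPM in LIN9 KO of the first experiment. Both number 2 libraries were more than 1.5 times any other library of the experiment. The log2 fold change was 0.30 (SE 0.51, interval -0.98 to 1.58, adjusted p = 0.756). In the second experiment its 12 libraries ranged from 8.08 to 17.2 CPM (24 to 51 counts), with group means of 14.7 ± 2.52, 11.98 ± 2.57, 11.96 ± 4.73 and 11.7 ± 4.68 CPM (SD, n = 3) in control, LIN9 KO, Sav1 KO and double knockout. All groups overlapped, and the LIN9 effects were -0.31 (SE 0.28, adjusted p = 0.484) and -0.04 (SE 0.29, adjusted p = 0.948).

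Nr2f2, which encodes COUP-TFII, was measured at 43.8, 55.9 and 44.8 CPM in LIN9 wt and at 38.7, 59.8 and 43.0 CPM in LIN9 KO of the first experiment. The log2 fold change was -0.03 (SE 0.16, interval -0.37 to 0.31, adjusted p = 0.921). Its group means in the second experiment were 45.1 ± 8.91 CPM in the control, 46.4 ± 4.61 in LIN9 KO, 41.5 ± 3.44 in Sav1 KO and 37.3 ± 5.26 in the double knockout (SD, n = 3). All groups overlapped. Against LIN9 KO with Sav1 wt, the double knockout was lower by a log2 fold change of -0.32 (SE 0.15), which did not pass the threshold of edgeR's test (adjusted p = 0.397).

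**Figure D3:**
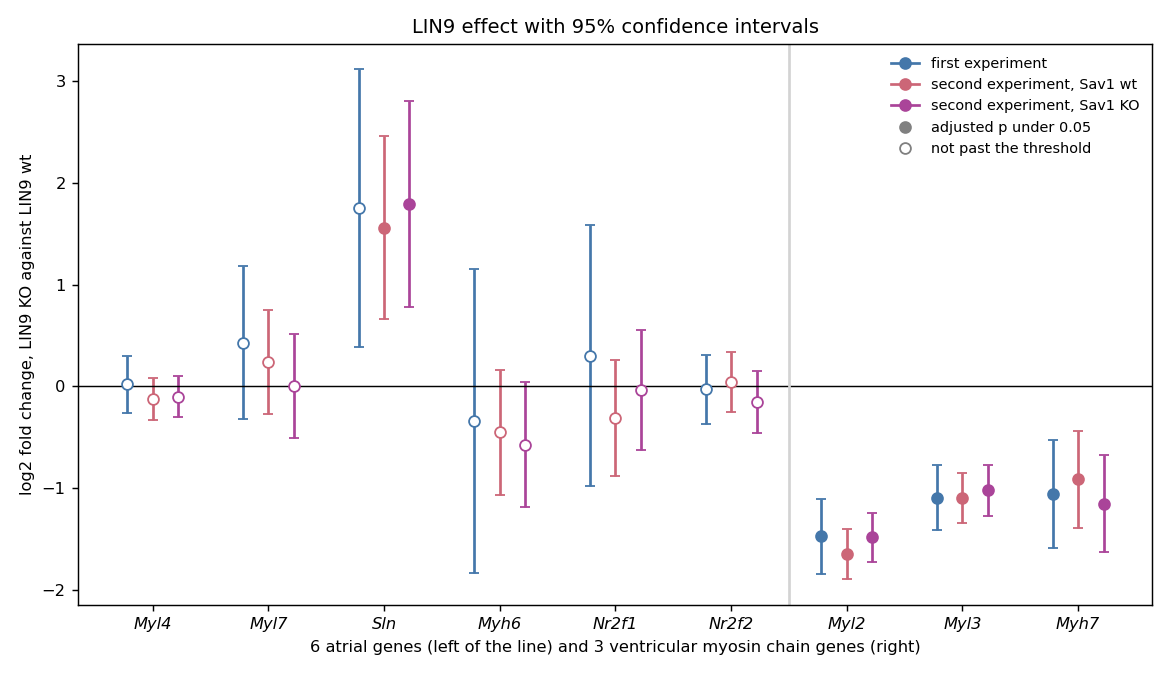
Log2 fold change of LIN9 KO against LIN9 wt with its 95% interval for the 6 atrial genes and the 3 ventricular myosin genes, in the first experiment and in both Sav1 backgrounds of the second. Filled points passed an adjusted p of 0.05, which among the atrial genes holds for Sln in the second experiment and among the ventricular genes for all 9 points.

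Counted over the list, the LIN9 knockout gave 0 of 6 members called in the first experiment, where 20.9% of 19752 genes were called (1 of 6 at an unadjusted p under 0.05, against 32.1% of genes, and 1 of 6 by DESeq2, against 20.9% of the 16687 genes it gave an adjusted p, Sln in both). It gave 1 of 6 with Sav1 wt, where 23.2% of 17675 genes were called, and 1 of 6 with Sav1 KO, where 23.4% were called. These shares are near the background. Groups did not overlap in 1 member (Sln) of the first experiment, against 36.5% of all genes, in 2 members with Sav1 wt (Sln higher, Myh6 lower), against 35.1%, and in 1 with Sav1 KO (Sln), against 41.1%. The median log2 fold change of the 6 was 0.16, -0.04 and -0.07, beside 0.02, 0.01 and 0.03 over all genes tested. The double knockout against the control called 0 of 6, where 20.6% of genes were called, although Sln had an unadjusted p of 0.0168 (1 of 6 under 0.05, against 32.3% of genes) and passed by DESeq2 (1 of 6, against 17.4%), and 1 of 6 did not overlap (Myl4, lower), against 37.4%. The tests of the difference between Sav1 backgrounds and between experiments called 0 members and 0% of genes (1156 and 1071 genes, 6.54% and 5.72%, at an unadjusted p under 0.05, none a member).

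The Sav1 knockout called 0 of 6 members in LIN9 wt ventricles, where 0.017% of genes (3 genes) were called, and 0 of 6 in LIN9 KO ventricles, where 0.0113% (2 genes) were called. At an unadjusted p under 0.05 these comparisons held 693 and 2093 genes (3.92% and 11.8%), among the members 0 and 1 (Nr2f2). In LIN9 wt ventricles DESeq2 called 2 of the 17654 genes it gave an adjusted p (0.0113%). In LIN9 KO ventricles it gave an adjusted p to only 869 genes and called 77 of them (8.86%). No member was called in either, and a member without an adjusted p could not be. Sln was the member with the largest difference, at -0.60 in LIN9 wt (SE 0.53, interval -1.76 to 0.56, adjusted p = 0.999) and -0.37 in LIN9 KO ventricles (SE 0.36, interval -1.16 to 0.43, adjusted p = 0.745). The other 5 lay between -0.32 and 0.14. Of the groups, only Myh6 did not overlap in LIN9 wt ventricles, 1 of 6 members against 12.1% of all genes, and none did so in LIN9 KO ventricles, against 15.1%.

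The ventricular partners moved in the opposite direction from Sln. Myl2 fell by 1.48, 1.65 and 1.48 on the log2 scale in the first experiment, with Sav1 wt and with Sav1 KO (adjusted p = 3.06e-05, 1.84e-10 and 8.81e-10). Myl3 fell by 1.09, 1.10 and 1.02, and Myh7 fell by 1.06, 0.92 and 1.15. Irx4, a transcription factor of the ventricular chamber, fell by 1.53, 1.52 and 1.32. Of the 8 ventricular genes tested, 8, 6 and 7 passed the threshold as lower, where 9.78%, 10.5% and 11.6% of all genes did. The summed level of these genes was 12250 to 12648 CPM in LIN9 wt and 5082 to 5805 CPM in LIN9 KO of the first experiment. In bulk tissue, fewer cells of a type and less RNA per cell cannot be told apart.

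The ratio of Myl7 to Myl2 per base of exon was higher in LIN9 KO in each comparison. It was 0.353, 0.677 and 0.289 in LIN9 wt and 1.16, 2.74 and 1.26 in LIN9 KO of the first experiment, a 3.88-fold difference. In the second it was 0.546, 0.451 and 0.431 in the control against 1.42, 1.505 and 2.56 in LIN9 KO (3.72-fold), and 0.423, 0.536 and 0.567 in Sav1 KO against 0.882, 1.51 and 2.101 in the double knockout (2.79-fold). No LIN9 KO library overlapped a LIN9 wt library of its background, and 8 of 9 LIN9 KO libraries lay above 1. Values above 1 rest on the division by exonic length. By counts alone Myl7 was at most 45.3% of the pair in any library (LIN9 KO library 2 of the first experiment). The ratio of Myl4 to Myl3 was also higher, from 0.325 to 0.445 up to 0.725 to 0.991 in the first experiment (2.17-fold), and 1.99-fold and 1.90-fold in the second. In LIN9 KO libraries its values below 1 rest on the same division. By counts alone Myl4 was 42.4% to 50.2% of the pair in LIN9 wt and 62.2% to 69.2% in LIN9 KO of the first experiment. In the second experiment it was 43.5% to 47.0% in the LIN9 wt groups and 59.0% to 67.3% in the LIN9 KO groups. For Myh6 to Myh7 the groups overlapped in the first experiment (0.479 to 0.598 against 0.577 to 1.14, 1.48-fold) and not in the second (1.41-fold and 1.43-fold). The overlap came from LIN9 wt library 2, and without both number 2 libraries the values were 0.498 and 0.479 in LIN9 wt and 0.577 and 0.702 in LIN9 KO. With 3 against 3 libraries the two-sided exact permutation test cannot go below p = 0.1, which it reached wherever the groups did not overlap (adjusted p = 0.164 over 18 tests, p = 0.2 for Myh6 to Myh7 in the first experiment). The Sav1 comparisons of the 3 ratios had exact permutation p from 0.6 to 1.

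**Figure D4:**
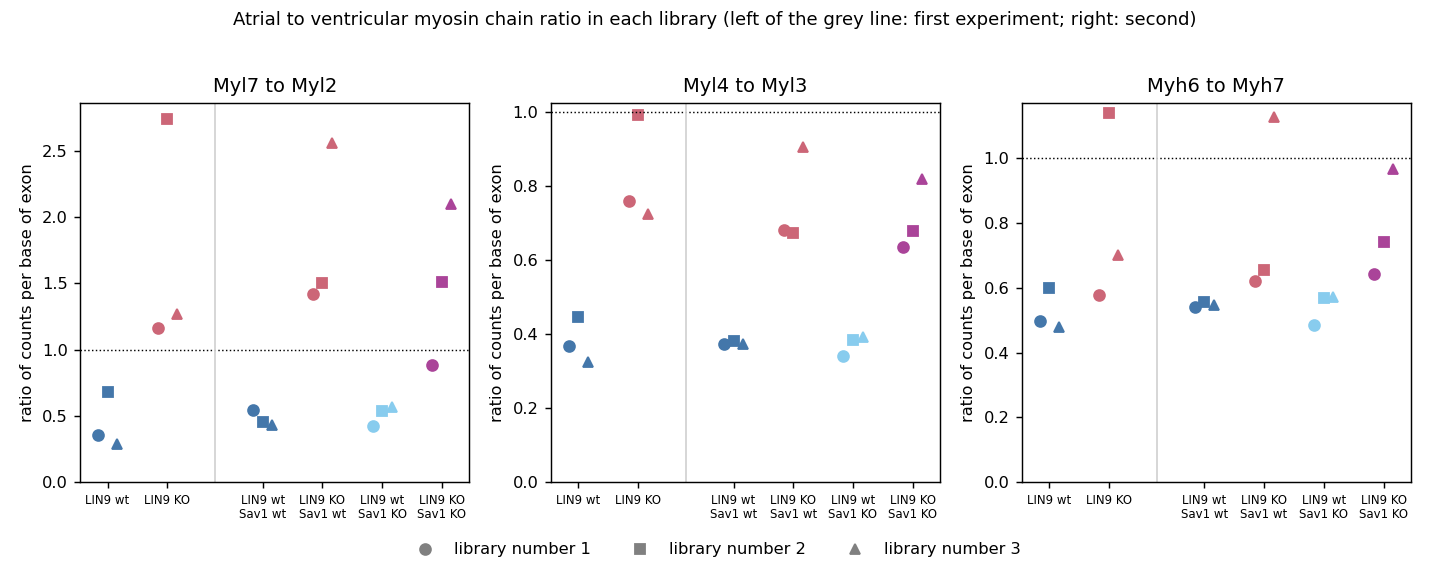
Ratio of the atrial to the ventricular myosin chain in each library, from counts per base of exon, for Myl7 to Myl2, Myl4 to Myl3 and Myh6 to Myh7, by genotype (points: single libraries, dotted line: equal counts per base of exon). Each LIN9 KO group lies above its LIN9 wt group for both light chain pairs, while the heavy chain pair overlaps in the first experiment through LIN9 wt library 2.

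The other atrial-enriched genes held calls in both directions. Of 19 tested, 4 passed as higher and 3 as lower in the first experiment, 6 and 2 with Sav1 wt, and 3 and 1 with Sav1 KO. Of all genes 11.1%, 12.8% and 11.8% passed as higher and 9.78%, 10.5% and 11.6% as lower, so that several of these counts are near the background. Nppa, the gene of atrial natriuretic peptide, which is also made in embryonic ventricles, rose by 1.59, 1.76 and 2.04 on the log2 scale, and Dkk3 rose by 1.03, 1.22 and 1.11. Mybphl, a sarcomere protein of the atrium and conduction system, was higher by 1.66 and 1.72 in the second experiment and by 1.29 with an adjusted p of 0.263 in the first. Gja5 (connexin 40) was lower by a log2 fold change of -1.46 in the first experiment (adjusted p = 0.01). The median of the 19 was 0.38, 0.21 and 0.28.

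Markers of other cell types moved with the LIN9 knockout too, and their part in the Sln difference was not tested. Haemoglobin genes took 0.785% to 1.11% of counts in LIN9 wt and 3.52% to 8.64% in LIN9 KO of the first experiment, 0.422% to 0.544% in the control against 2.13% to 3.75% in LIN9 KO, and 0.331% to 0.432% in Sav1 KO against 1.04% to 3.10% in the double knockout. Leaving these 13 genes out of the library sizes changed no call of a member. Epicardial markers passed as higher in 6 of 7 genes each time, mesenchymal and cushion markers in 8, 8 and 9 of 9, and macrophage markers in 7, 6 and 6 of 7, where 11.1%, 12.8% and 11.8% of all genes passed as higher. Other lists held calls in both directions or few calls. Of 8 endothelial and endocardial markers, 3, 3 and 5 passed as higher and 0, 1 and 1 as lower, the latter being Kdr, a receptor of vascular endothelial growth factor, at -0.83 and -0.67. Of 6 venous and lymphatic markers, 0 passed as higher and 1, 2 and 2 as lower, with Prox1 at -0.89, -0.62 and -0.73, and 9.78%, 10.5% and 11.6% of all genes passed as lower. Of 5 smooth muscle markers, 2 passed as higher each time, and 0, 1 and 1 as lower. The summed epicardial level was 302 to 316 CPM in LIN9 wt against 537 to 616 CPM in LIN9 KO of the first experiment. The skeletal muscle markers, of a tissue that also makes Sln, summed to at most 4.47 CPM in any library over 5 genes, of which Myf5 was listed at 0, as was the heart gene Pln. Of those tested, 0 of 4, 1 of 2 and 0 of 2 passed as higher, the 1 being Myh3, the embryonic skeletal heavy chain, with Sav1 wt (log2 fold change 3.18, SE 1.15, adjusted p = 0.044). Its groups overlapped there, and its mean in the second experiment was only 1.12 CPM. Tnnt3, a fast skeletal troponin gene outside that list, had a mean of at least 10 CPM in both experiments and followed Sln most closely of all genes compared, as given below. Markers of the sinus node and venous pole passed as higher in 3 of 7 genes in the first experiment (among them Tbx3 by 0.74 and Isl1 by 0.90 on the log2 scale) and in 0 of 7 in the second, beside the same shares of all genes.

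Within genotypes the members rose and fell together from library to library. After the genotype mean was taken from each library's log2 CPM, all 15 pairs of members had a positive correlation over the 18 libraries, and 11 passed an adjusted p of 0.05 in a permutation test within genotypes (r from 0.65 to 0.88, adjusted over the 15 pairs). By rank correlation 9 pairs passed, without Nr2f1 with Nr2f2 and Myh6 with Nr2f2 (r = 0.70, rho 0.58, adjusted permutation p = 0.0638 for rho, r = 0.43 in the second experiment alone). Of all pairs of 10627 genes, 3.61% had an r of at least 0.65 and 50.4% a positive r. Myl7 and Sln were closest, with r = 0.88 (permutation p = 2.40e-04, adjusted p = 0.0036) and rho = 0.86 (p = 4.10e-04). The r was 0.89 in the first and 0.90 in the second experiment, and 0.88 without the 2 libraries farthest out in Myl7. Myl7 with Nr2f1 gave r = 0.85 (adjusted p = 0.00612), and r = 0.75 without the 2 farthest. Nr2f1 with Nr2f2 gave r = 0.65 (rho 0.49, adjusted permutation p = 0.100 for rho), which was 0.45 without both number 2 libraries of the first experiment, so that this relation rested on those libraries. Myl4 was correlated past the threshold with Nr2f2 (r = 0.69, adjusted p = 0.006) and not with Myl7 (0.53, adjusted p = 0.0802), Sln (0.43), Myh6 (0.21) or Nr2f1 (0.40). These deviations are in log2 CPM and share each library's composition.

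**Figure D5:**
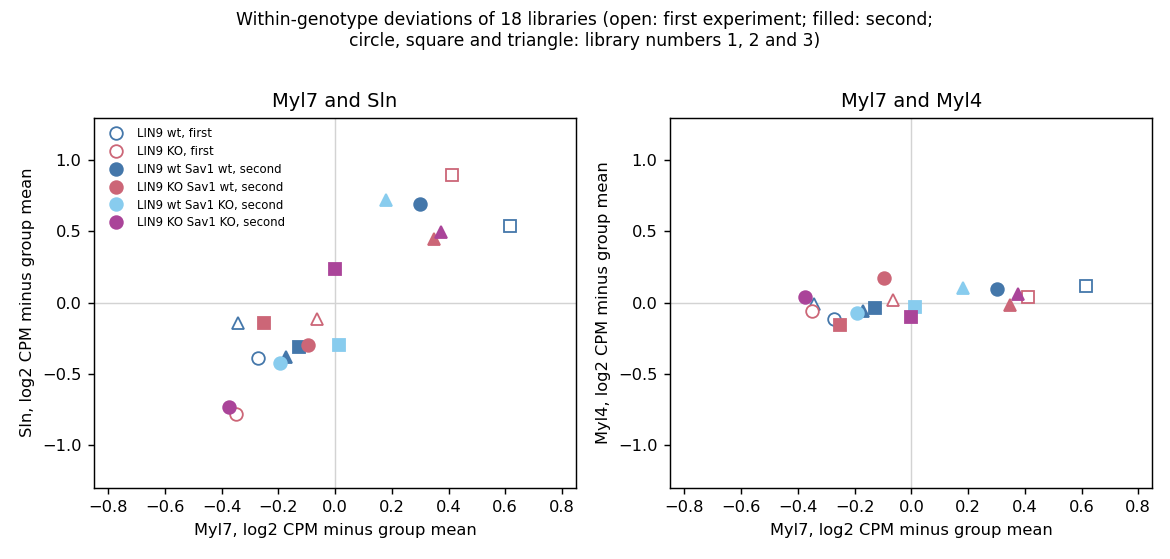
Deviation of each of the 18 libraries from its genotype mean in log2 CPM, for Myl7 against Sln (left) and Myl7 against Myl4 (right), with open points for the first and filled points for the second experiment. The Sln deviations follow those of Myl7 (r = 0.88) over a wider range than those of Myl4 (r = 0.53).

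Over all 18 libraries, genotype differences included and the mean of each table removed, the genes most like each member among 10621 genes of at least 10 CPM were named by their Pearson r, as a description. Myl7 was followed most closely by Stard10 (0.90), an atrial-enriched gene of the list, Kcnj5 (0.84), a subunit of the atrial acetylcholine-gated potassium channel, and Ndc1 (0.80). Sln was followed by Tnnt3 (0.94), the fast skeletal troponin T, Lcp1 (0.94), an actin bundling protein of leukocytes, and Gucy1a3 (0.93). Myh6 was nearest to Pam (0.92), an atrial-enriched enzyme of peptide amidation, Nedd4 (0.91) and Lamc1 (0.90). Nr2f1 was nearest to Stard10 (0.76), Adcy1 (0.76) and Gnao1 (0.72), which gave 0.93, 0.90 and 0.93 in the first experiment and 0.57, 0.54 and 0.39 in the second, so that this likeness rested mainly on the first. Nr2f2 was nearest to Hcn4 (0.83), a pacemaker channel, Gnao1 (0.79) and Parva (0.77), and Myl4 to Gm14150 (0.84), Tuba1c (0.83) and Slc35a4 (0.83).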

How the data were processed

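RNA was isolated from E13.5 ventricles and sequenced as polyA libraries (NEBNext Ultra II, NextSeq). The deposited tables hold whole-number read counts per Ensembl gene, which the authors made with TopHat2 2.1.0 and Bowtie2 on mm10, after bringing libraries to the smallest number of mappable reads, and summarizeOverlaps on the GRCm38.p6 annotation. Depths are therefore levelled within a table, and overlap mode and strandedness were not stated. The authors' own tables of log2 fold changes, CPM and p-values from edgeR were not used. Every per-sample column was used (0 left aside), and 4 repeated identifiers were kept once.

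TMM factors and the robust quasi-likelihood test of edgeR 4.0.16 (R 4.3.3) were used on all genes whose mean count exceeded 1, 19752 in the first and 17675 in the second experiment, with Benjamini-Hochberg adjustment over all of them and a threshold of 0.05. The 12 libraries of the second experiment shared 1 fit, and 18737 genes of both tables were fitted together to compare the experiments. CPM used TMM library sizes, and log2 CPM a prior count of 2. Correlations used 100000 resamples (1e+05) within genotypes. Ratios used GENCODE M21 exonic lengths. In simulated data, 95% and 45% of 100 genes each changed by 1 and 0.5 on the log2 scale were recovered for the first experiment (19427 genes, 16 false calls), and 83% and 28% for the LIN9 effect with Sav1 wt (17434 genes, 6 false calls). The changed genes were drawn only from genes past a minimum mean CPM, so the recovered shares do not cover genes below it. Alternatives were RLE factors, DESeq2 1.42.0, no filter, 13 haemoglobin genes left out, the replicate number as a block, 6-library fits and each library left out. Genes were named as members, mostly as the called genes of highest mean CPM in a list, or by likeness (3 per member). Irx4 was an exception, since Hey2 of the same list had a higher mean CPM (132.2 against 72.4 in the second experiment). Hey2 had the smaller fall in the double knockout against the control (log2 fold change -0.59 against -1.33 for Irx4). The members, gene lists and tests were chosen with earlier results of these data known. Intervals cover the spread between libraries only.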

Additional observations from a re-analysis of the deposited data

How the results depend on the processing

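Of 633 recomputed values of the members, 553 kept their direction and their side of the threshold, 19 passed only under the alternative, 5 no longer passed and 56 changed sign. Sln was higher with the LIN9 knockout under every alternative run in all 3 LIN9 comparisons, and no other scaling moved the median of all genes by more than 0.03 (log2). The causes of the changes below were not tested. Counts near 10 (Sln in Sav1 KO) limit single libraries of the second experiment.

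In the first experiment, 0 members passed, and 1 by DESeq2 (Sln, 1.75, adjusted p = 0.0132), 2 with the replicate block, where 25.3% of genes passed (Sln, 1.68, adjusted p = 8.89e-08; Myl7, 0.46, adjusted p = 0.0016), 3 without both number 2 libraries (Sln, Myl7 and Myh6, where 14.9% of genes passed), and 0 to 2 without single libraries (13.8% to 21.5% of genes). Same-numbered libraries correlated by 0.0267 to 0.0873 in the first experiment and by -0.0514 to 0.393 over the pairs of groups of the second, where the highest range was that of control and LIN9 KO (0.0891 to 0.393). In no pair of groups were all 3 above 0.1, and the reported tests did not pair libraries by number. Whether same-numbered libraries share anything beyond the number was not tested. Of all genes 4131 passed, and 2722 to 4223 without single libraries. With Sav1 wt, 1 member passed, 2 in the 6-library fit (19.5% of genes) and 0 to 1 without single libraries (17.2% to 23.3%). With Sav1 KO 1 passed, 1 in the 6-library fit (28.6%) and 0 to 2 without single libraries (16.9% to 21.8%). For the double knockout against control, 0 members passed, 1 (Sln) each by DESeq2 (adjusted p = 0.0177), without a filter (adjusted p = 4.44e-05), with the replicate block (1.16, adjusted p = 0.0414) and in the 6-library fit (1.17, adjusted p = 0.0473), where 16.8% to 22.8% of genes passed, and 0 to 1 without single libraries (14.0% to 19.7%); Myh6 was at -0.81 (adjusted p = 0.00451) without double knockout library 3. The Sav1 effect in LIN9 wt called 3 genes, 22 without a filter, 31 in the 6-library fit and 0 to 2 without single libraries. In LIN9 KO the Sav1 effect called 2 genes (0.0113%), 309 without a filter (1.3%) and 84 with the replicate block (0.475%). DESeq2 called 77 there, which were 8.86% of the only 869 genes it gave an adjusted p. The 6-library fit called 0, and fits without single libraries called 0 to 378. The interaction called 0 genes, 17 without a filter and 0 to 64 without single libraries, and the second minus first difference called 0, and 0 to 1 without single libraries.

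No value that changed sign had passed the threshold. For the Sav1 effect in LIN9 KO, Myl4 (-0.01) was 0.00029 with RLE factors, 0.00028 by DESeq2 and 0.013 in the 6-library fit, and Myh6 (0.02) was -0.029 with the replicate block. Myl7 was -0.00899 without haemoglobin genes and -0.00727 with the replicate block for the LIN9 effect with Sav1 KO, and -0.00157 with the replicate block for the double knockout. Without both number 2 libraries, chosen after seeing the data, second minus first was 0.046 for Sln and 0.47 for Myh6. Leaving out single libraries gave these ranges. LIN9 effect, first experiment: Myl4 -0.038 to 0.079, Nr2f1 -0.21 to 0.82, Nr2f2 -0.24 to 0.098. LIN9 effect with Sav1 wt: Nr2f2 -0.079 to 0.19. With Sav1 KO: Myl7 -0.22 to 0.14, Nr2f1 -0.43 to 0.32. Sav1 effect in LIN9 wt: Myl4 -0.082 to 0.023, Myl7 -0.069 to 0.20, Nr2f2 -0.24 to 0.047. Sav1 effect in LIN9 KO: Myl4 -0.065 to 0.089, Myh6 -0.33 to 0.29, Nr2f1 -0.40 to 0.15. Double knockout: Myl7 -0.21 to 0.20. Interaction: Myl4 -0.038 to 0.13, Sln -0.24 to 0.76, Myh6 -0.46 to 0.16, Nr2f1 -0.086 to 0.66. Second minus first: Myl7 -0.58 to 0.051, Sln -0.54 to 0.40, Myh6 -0.42 to 0.70, Nr2f2 -0.093 to 0.28.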

Other observations

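Genes of the COUP factors' partners and of retinoic acid, a signal of the inflow part of the heart tube, were counted in the LIN9 comparisons. Of the genes tested, 7 of 16 passed as higher and 1 as lower in the first experiment, 6 of 15 and 0 with Sav1 wt, and 7 of 15 and 1 with Sav1 KO, beside 11.1%, 12.8% and 11.8% of all genes as higher and 9.78%, 10.5% and 11.6% as lower. Rarb, a retinoic acid receptor and target, rose by 0.56, 0.57 and 0.69 on the log2 scale. Dhrs3, which reduces retinaldehyde, rose by 1.17, 1.41 and 1.34, and Aldh1a2, the main synthesis enzyme and also an epicardial marker of the lists used, by 0.96, 0.99 and 0.51. Rxra was lower by log2 fold changes of -0.53 and -0.34 in the first experiment and with Sav1 KO, and stood at 0.04 (adjusted p = 0.841) with Sav1 wt. The members Nr2f1 and Nr2f2 themselves did not pass in these comparisons. Epicardial markers passed as higher in 6 of 7 genes of each comparison, and their part in these differences was not tested.

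Sarcolipin acts on the calcium pumps. Atp2a2, the cardiac SERCA pump, changed by -0.80 (adjusted p = 0.0772) in the first experiment and fell by 0.70 and 0.99 in the second (adjusted p = 5.64e-05 and 4.31e-07). Atp2a3, a pump of non-muscle cells, rose by 0.75, 1.20 and 0.98, and Hrc, a calcium binding protein of the sarcoplasmic reticulum, by 0.91 and 0.70 in the second experiment, beside 0.58 (adjusted p = 0.0968) in the first. In all, 1 of 7 genes tested passed as higher and 0 as lower in the first experiment, and 2 and 1 in each background of the second, beside the same shares of all genes. The counts of the first experiment are near the background, and so is the 1 lower gene (Atp2a2) in each background of the second.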
